A study of Mus musculus with 9 samples.

Results

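The 36 genes described here are interferon-stimulated genes, a set given by mouse symbol and found in the count tables by gene ID. They make up 36 of the 55401 genes counted. All 36 were found, and 33 of them were among the 15659 genes with enough reads to be tested, the exceptions being Oas1a, Oas2 and Batf2. By role, the set holds 4 IFIT RNA binders, 5 genes of the oligoadenylate synthetase (OAS) family, 2 Mx GTPases, 3 genes of the ISG15 system, 6 genes of RNA sensing, 6 transcription factors, 2 membrane effectors and 8 other effectors.

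The cells were NP53, a mouse line of diffuse midline glioma (DMG), whose polyadenylated RNA was sequenced in 3 groups of 3 libraries. G1C7 and G2C9 are derivatives of NP53 labelled as TIM-3 knockouts, and Gcontrol is NP53 labelled as wild type. All 3 groups were grown in DMEM with serum and antibiotics, and no interferon or other stimulus is named for any of them. The labels do not say whether a derivative is 1 clone. They also leave unsaid whether the 3 libraries of a group are separate cultures, and where they are not, the p-values reflect technical spread only. TIM-3 is the product of Havcr2, whose transcript had 55, 6 and 66 reads in the G1C7 libraries, 39, 30 and 28 in the G2C9 libraries and 74, 58 and 60 in the Gcontrol libraries. The transcript was thus still read in both derivatives, and neither difference passed the edgeR test (log2 fold change of -0.58 for G1C7 at an adjusted p of 0.586, and of -0.85 for G2C9 at 0.448). Without G1C7 replicate 2 the log2 fold change was -0.06 for G1C7, and G2C9 then passed (adjusted p = 0.0323).

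Interferons are secreted proteins that cells release after sensing foreign nucleic acid. Type I interferons bind the receptor formed by Ifnar1 and Ifnar2, and the kinases Jak1 and Tyk2 then activate factors such as STAT2, which joins IRF9 in the complex that binds the interferon-stimulated response element (ISRE) in front of its target genes. Interferon gamma acts through Ifngr1 and Ifngr2 and leads to binding at the GAS element. Many of the target genes encode antiviral effectors, and others encode the sensors and transcription factors of the pathway itself, so that a low level of many of these transcripts can be present in cells that are not infected.

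The sequences in front of several of these genes are shown because they carry the letters that the pathway's own factor complex binds. RefSeq promoters (GRCm38.p6, 250 bases before to 50 after each start) were found for 26 of the 36 genes. The ISRE-type letters searched were 2 copies of GAAA with 2 bases between them, on both strands. These letters stood in 12 of the 26 promoters (46.2%) and in 3.99% of all 27025 genes with a promoter. Printed 5′ to 3′ on the strand of the gene, with the matching letters in capitals, they read as follows.
Ifit1 (chr19:34640770-34640828, plus strand): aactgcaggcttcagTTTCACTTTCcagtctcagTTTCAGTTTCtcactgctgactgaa
Ifit3 (chr19:34583358-34583431, plus strand): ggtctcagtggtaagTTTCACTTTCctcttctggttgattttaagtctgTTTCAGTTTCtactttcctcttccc
Isg15 (chr4:156200860-156200911, minus strand): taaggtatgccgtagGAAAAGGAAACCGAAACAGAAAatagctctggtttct
Oas3 (chr5:120777710-120777749, minus strand): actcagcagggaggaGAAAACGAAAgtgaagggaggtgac
Stat2 (chr10:128270261-128270300, plus strand): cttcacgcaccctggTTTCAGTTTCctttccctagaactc
Bst2 (chr8:71537572-71537617, minus strand): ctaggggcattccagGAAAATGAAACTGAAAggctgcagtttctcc
The Isg15 stretch holds 3 overlapping matches, Bst2 holds 2 overlapping matches, and Ifit1 and Ifit3 hold 2 separate ones. Ifit3b carries the same letters as Ifit3 (chr19:34607754-34607827, plus strand), and Oas3 and Stat2 hold 1 match each. Oas1a, whose stretch is not printed, holds 2 overlapping matches before its start. The GAS letters TTCNNNGAA stood in 8 of the 26 promoters (30.8%) and in 9.55% of all genes with a promoter. A match is a description of the letters and not evidence of binding.

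The libraries were of similar depth, with 50110129 to 56035382 reads in genes, but 2 of them stood apart from their own groups. Compared by chi-square over genes, in read pairs and divided by the degrees of freedom, G1C7 replicates 1 and 3 gave 4.39, while replicate 2 gave 151 with the first of them and 156 with the other. In G2C9 the value was 5.64 between replicates 1 and 2, and replicate 3 gave 97.9 and 93.6 against them. The Gcontrol libraries gave 2.48 to 7.42. G1C7 replicate 2 and G2C9 replicate 3 are therefore given apart, and the counts of called genes are given with and without them. They also differed in genes used as markers of other cell types. The summed level of 6 fibroblast markers was 3194, 8206 and 3025 CPM (counts scaled to library size) in G1C7 replicates 1, 2 and 3. It was 3992, 3918 and 8768 CPM in G2C9 and 5853 to 6154 CPM in Gcontrol. Col1a1, Col1a2, Col3a1 and Dcn were each highest of their group in the library that stood apart. Pdgfrb of the same list went the other way in G1C7, at 324, 216 and 305 CPM. It was 328, 316 and 335 CPM in G2C9 and 228 to 256 CPM in Gcontrol, and Lum had at most 14 reads in a library. The summed level of 8 myeloid markers was 3.14, 5.95 and 3.03 CPM in G1C7, 4.04, 3.86 and 10.1 CPM in G2C9 and 5.47 to 5.80 CPM in Gcontrol. In G2C9 replicate 3 most of that sum was Lyz2 (5.41 CPM) and Cd68 (4.04 CPM). There Ptprc, Aif1 and Itgam had 0 reads and Cx3cr1 had 2. Csf1r stood at 0.693, 0.571 and 0.625 CPM in G2C9 replicates 1, 2 and 3. Tyrobp was at 0 reads in all 9 libraries. The part of these markers in the values below was not tested, and in bulk RNA a smaller share of cells with a transcript and less of it per cell cannot be told apart. The markers of glial precursors did not go 1 way. Olig1 and Olig2 were at 0 reads in all 9 libraries. Pdgfra stood at 331 to 491 CPM in G1C7, 390 to 541 CPM in G2C9 and 238 to 257 CPM in Gcontrol. Vim was also higher, at 2124 to 2307, 1844 to 2075 and 1800 to 1840 CPM in the same order of groups. Cspg4 was lower in the derivatives, at 0.910 to 1.53, 3.39 to 5.41 and 38.4 to 47.7 CPM. Sox2 was lower too, at 21.3 to 58.6, 23.2 to 40.8 and 69.4 to 69.8 CPM.

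Levels per length set the scale on which these genes were read in untreated NP53 cells. In Gcontrol, Ifitm3, which encodes a membrane protein that blocks the fusion of viruses with the cell, stood far above the others at 340 ± 12.1 RPKM (CPM per kilobase of exon; SD, n = 3). Next were Ifi27 at 16.8, Irf1 at 16.3, Bst2 at 13.6, Ifit2 at 11.7, Trim25 at 11.5, Xaf1 at 10.8, Eif2ak2 at 10.1, Ddx58 at 9.55, Isg15 at 8.89 and Ifi35 at 8.42 RPKM. Oas3, Oas2, Irf8 and Batf2 lay at the low end, with Oas3 at 0.0379 RPKM. The same order did not hold in the derivatives, where Xaf1 stood at 1.87 RPKM in G1C7 and 1.09 RPKM in G2C9.

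A set of these genes was lower in both knockout derivatives than in Gcontrol, led by Xaf1, Ddx58, Trim25 and Parp14. The OAS genes Oas3 and Oasl2 also fell in both, but entered the test through Gcontrol alone, as given below. In G1C7 against Gcontrol, 8 of the 33 tested genes (24.2%) fell at an adjusted p under 0.05 and none rose, with a median log2 fold change of -0.93 over the 33 genes and 0.02 over all tested genes. Of all 15659 tested genes, 8.73% were lower and 8.77% higher in that comparison. In G2C9 against Gcontrol, 8 of the 33 (24.2%) fell and 1 rose, with a median of -1.06 over the 33 genes and 0.01 over all tested genes. There, 7.22% of all tested genes were lower and 6.25% higher. At an unadjusted p under 0.05 the counts were 18 and 13 of the 33 genes. The share of all tested genes at that p was not computed, so these 2 counts have no background beside them. The 2 comparisons share the 3 Gcontrol libraries, so that their counts are not independent of each other. Of the 33 genes, 7 (Ifit3b, Mx1, Mx2, Oas3, Oasl1, Oasl2 and Ifi44) reached 10 reads in all Gcontrol libraries but in fewer than 3 derivative libraries. These genes would not have entered the test without their reads in Gcontrol. Of the other 26 genes, 5 fell in G1C7 and 6 in G2C9. The medians above include the 7 genes and were not taken over the 26 alone.

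In the plain order of libraries, 21 of the 33 genes had all 3 G1C7 libraries below all 3 Gcontrol libraries, which held for 22.1% of all tested genes. In G2C9 this held for 20 of the 33, against 22.9% of all tested genes. For 16 of the 33 genes (48.5%) all 6 derivative libraries lay below all Gcontrol libraries, against 14.8% of all tested genes, and for none did all 6 lie above. Among the 26 genes that did not need their reads in Gcontrol to be tested, the counts were 14 in G1C7, 14 in G2C9 and 10 in both. Without G1C7 replicate 2 and G2C9 replicate 3, the derivative libraries lay below Gcontrol for 28 of the 33 genes in G1C7 (35.1% of all tested genes), 29 in G2C9 (35.1%) and 28 in both (26.0%). The 16 genes low in all 6 libraries were Ifi35, Xaf1, Parp14, Trim25, Ifih1, Ddx58, Zbp1, Ifit1, Irf7, Oasl2, Oasl1, Oas3, Mx2, Isg15, Ifit3b and Ifi44. The heatmap of all 36 genes shows the same in colour.

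**Figure D1:**
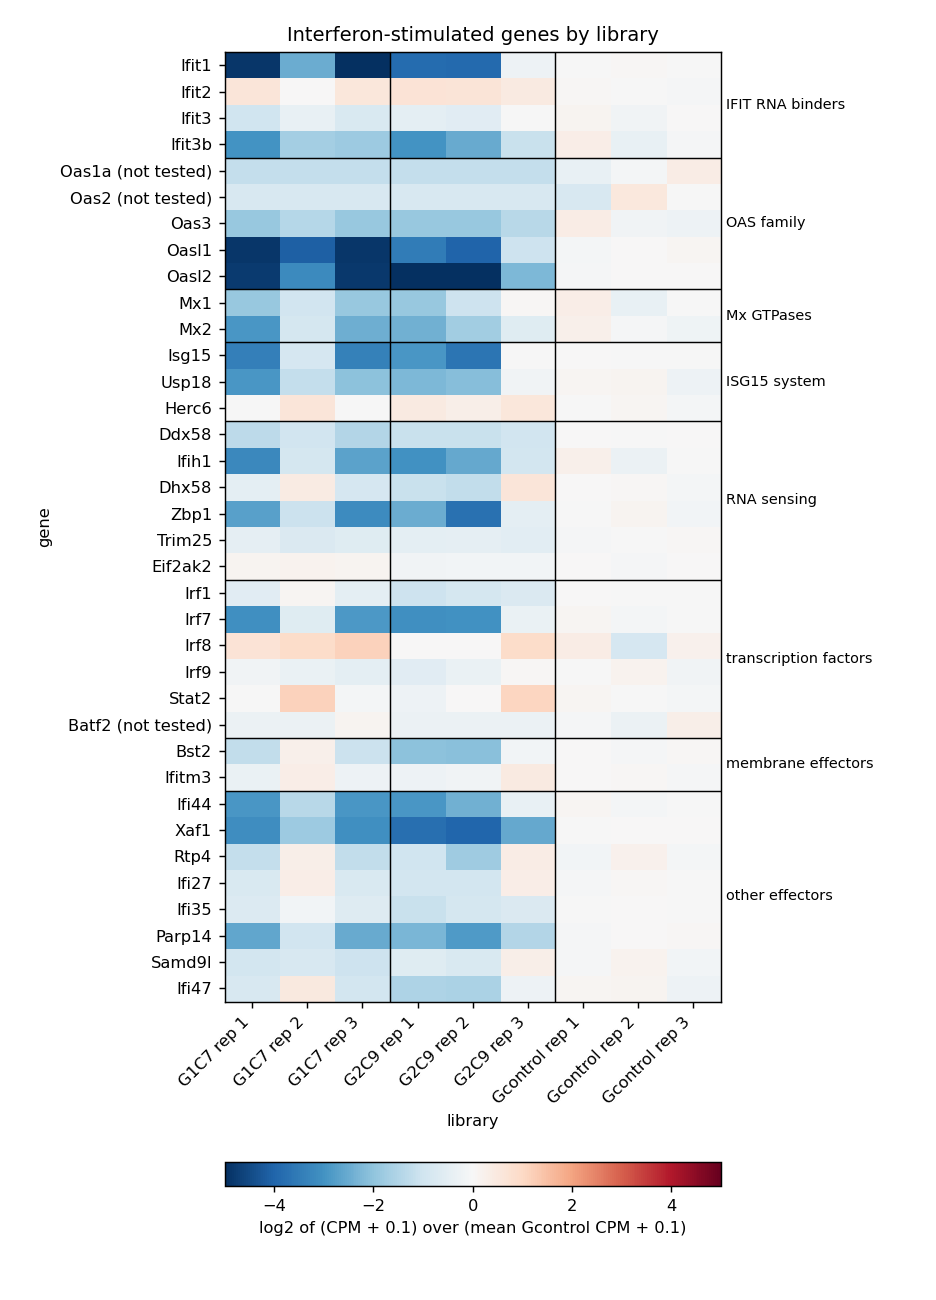
Level of the 36 interferon-stimulated genes (rows, grouped by role) in the 9 libraries (columns), as the log2 of CPM plus 0.1 over the mean Gcontrol CPM plus 0.1; blue is below and red above the Gcontrol mean. The G1C7 and G2C9 columns are mostly blue, paler in G1C7 replicate 2 and G2C9 replicate 3, while Ifit2 is pale red in most derivative libraries.

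The libraries that stood apart carried more of most of these transcripts than the others of their group. G1C7 replicate 2 lay above both other G1C7 libraries for 29 of the 33 genes and below both for 2 (Ifit2 and Trim25), and G2C9 replicate 3 lay above both other G2C9 libraries for 30 of the 33 genes. The median log2 ratio to the Gcontrol mean over the 33 genes was -1.21, -0.71 and -1.22 in G1C7 replicates 1, 2 and 3, and -1.54, -1.57 and -0.25 in G2C9 replicates 1, 2 and 3. Over all tested genes it lay between -0.014 and -0.003 in every derivative library. The 33 genes include the 7 that needed their reads in Gcontrol to be tested. The summed level of all 36 genes, of which Ifitm3 is the largest part, was 511, 713 and 517 CPM in G1C7, 496, 511 and 713 CPM in G2C9 and 724 to 743 CPM in Gcontrol. In each derivative, then, 2 libraries were low and 1 was close to Gcontrol in this sum. Ifitm3 alone stood at 292 CPM in G1C7 replicate 2 and 312 CPM in G2C9 replicate 3, above its 221 to 237 CPM in Gcontrol. Gene by gene, 21 of the 33 lay below all Gcontrol libraries in G1C7 replicate 2 and 11 above. In G2C9 replicate 3 these counts were 20 and 9. For the counts of this paragraph no share over all tested genes was computed. These libraries were given apart because they differed from their groups over all genes, so the counts are not read as a trait of the set.

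**Figure D2:**
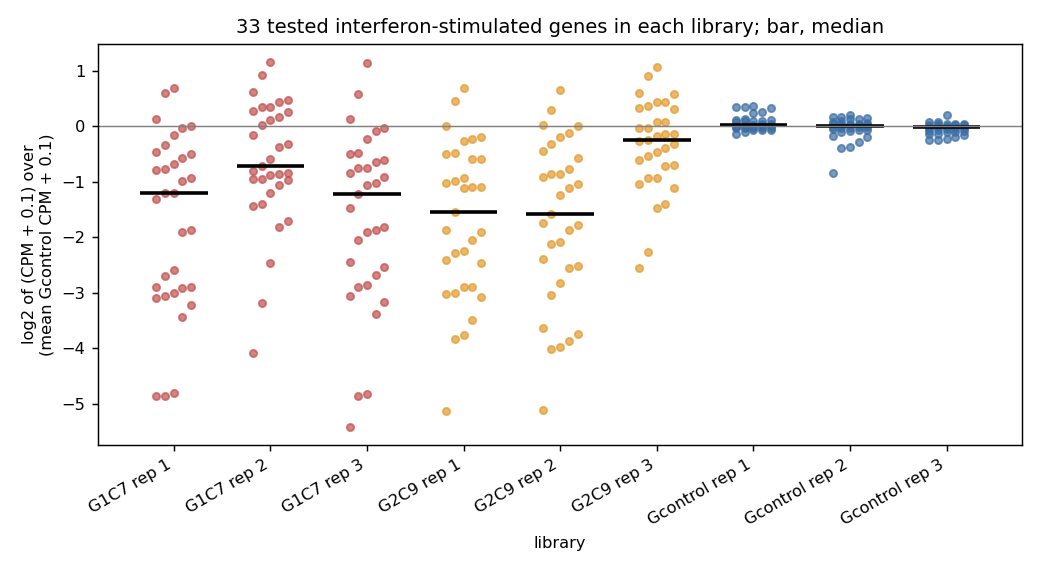
Each point is 1 of the 33 tested genes in 1 library, as the log2 of CPM plus 0.1 over the mean Gcontrol CPM plus 0.1; the black bar is the median of the library. The medians lie at -0.71 in G1C7 replicate 2 and -0.25 in G2C9 replicate 3, above the -1.21 to -1.57 of the other derivative libraries.

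With G1C7 replicate 2 and G2C9 replicate 3 left out, 28 of the 32 genes then tested fell in G1C7 and 2 rose (Ifit2 and Eif2ak2), and 29 fell in G2C9 and 2 rose (Ifit2 and Herc6). In that fit 27.9% of all 15808 tested genes were lower in G1C7 and 27.6% in G2C9, so calls became more frequent throughout. The medians over the 32 genes were -1.33 in G1C7 and -1.84 in G2C9. These counts and medians include the 7 genes that, with all libraries, needed their reads in Gcontrol to be tested. Leaving out libraries because they differ from the rest of their group narrows the spread by construction, so these calls describe 4 derivative libraries and not the groups as labelled.

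**Figure D3:**
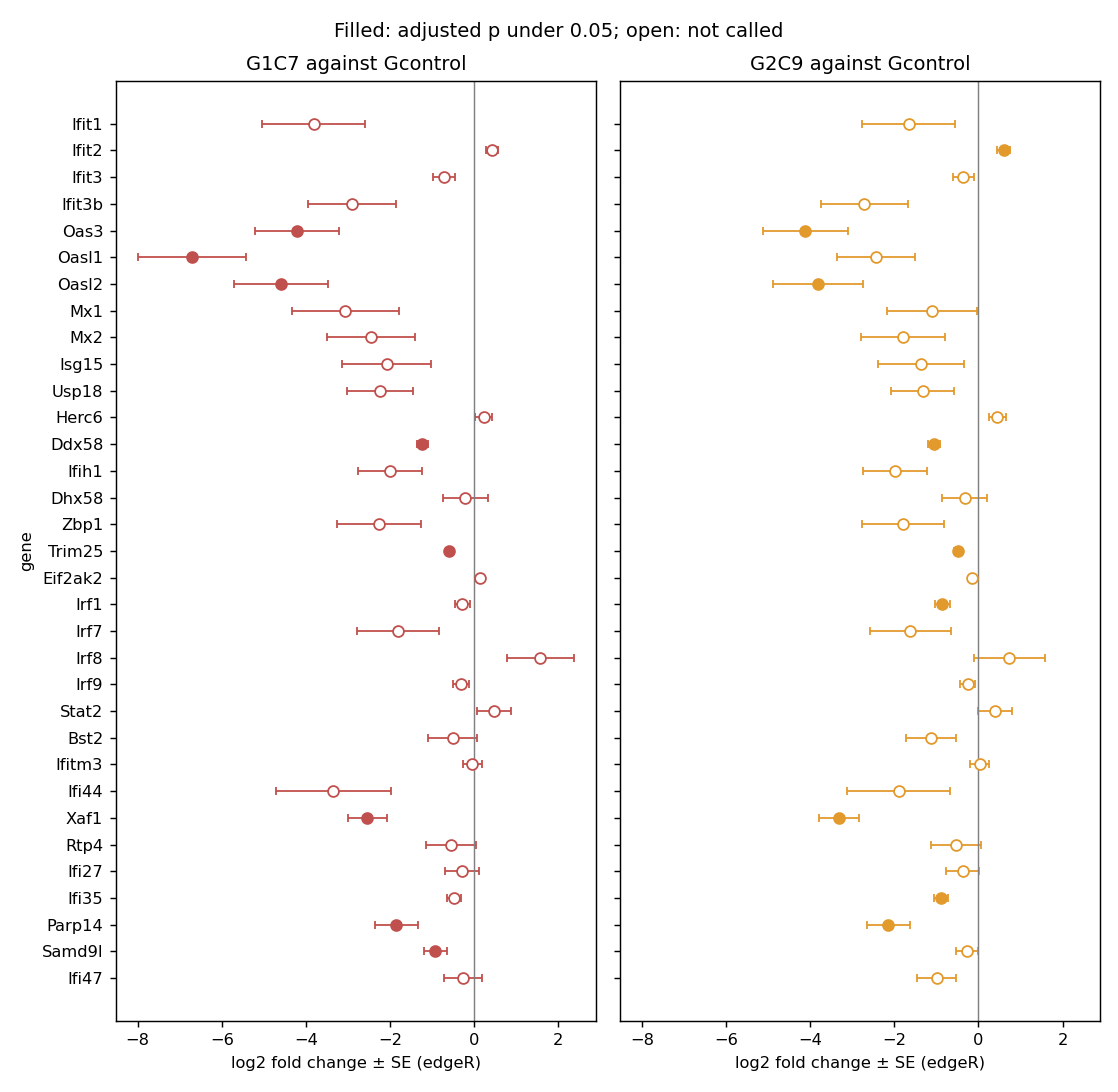
Log2 fold change (edgeR, bars are SE) of the 33 tested genes in G1C7 against Gcontrol (left) and G2C9 against Gcontrol (right), from all 9 libraries; filled points were called at an adjusted p under 0.05. Called points lie left of 0 in both panels except Ifit2 in G2C9, and the low-level genes have the widest bars.

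The signals upstream of these genes were close to the limit of detection for the ligands, and few receptor genes were called. Of 10 interferon ligands, 3 had any read: Ifnb1, which encodes interferon beta, had 1, 2 and 0 reads in G1C7, 0, 1 and 2 in G2C9 and 0, 4 and 4 in Gcontrol, and Ifnk and Ifne had at most 6 in a library. No ligand could be tested, and a difference in them was not detectable at this depth. Among the 6 receptor genes 5 were tested, and Ifngr1, the ligand-binding chain for interferon gamma, rose in G1C7. It had 62.6, 69.9 and 65.2 CPM in G1C7, 55.0, 57.8 and 63.3 CPM in G2C9 and 48.3, 49.3 and 49.6 CPM in Gcontrol, with the derivatives above Gcontrol in 6 of 6 libraries. The log2 fold change was 0.43 ± 0.08 in G1C7 (edgeR adjusted p = 0.0101, and 0.0563 without Gcontrol replicate 1) and 0.26 in G2C9 (adjusted p = 0.0779, and 0.0256 without G1C7 replicate 2). Ifnar1 and Ifnar2, the chains for type I interferon, gave -0.05 and 0.02 in G1C7 and -0.08 and 0.16 in G2C9, with no call, but with both libraries that stood apart left out Ifnar2 gave -0.37 in G1C7. With both left out, 4 of the 5 tested receptor genes fell and 1 rose in G1C7, and 2 fell and 1 rose in G2C9. In that fit 54.3% of all tested genes were called in G1C7 and 53.0% in G2C9. With all libraries, Ifngr2 and Il10rb gave -0.18 and 0.10 in G1C7 and -0.05 and 0.24 in G2C9, and Ifnlr1 had reads in 1 Gcontrol library alone.

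Of the genes of receptor signalling outside the set, Irf5, a transcription factor that acts downstream of Toll-like receptors, fell in G1C7. Irf5 had 0.224, 1.80 and 0.438 CPM in G1C7, 0.753, 0.531 and 2.09 CPM in G2C9 and 4.67 to 5.25 CPM in Gcontrol. Its change was -2.56 ± 0.75 in G1C7 (adjusted p = 0.0483, ended by leaving out any library except G1C7 replicate 2 or G2C9 replicate 3, at 0.0560 to 0.128) and -2.11 in G2C9 (adjusted p = 0.0986, passing without G1C7 replicate 2 or G2C9 replicate 3 at 0.0114 and 0.0476). The kinases Jak1, Jak2 and Tyk2 gave -0.05, 0.04 and 0.38 in G1C7 and -0.10, 0.06 and -0.01 in G2C9, and the factors Irf2 and Irf3 gave 0.29 and 0.24 in G1C7 and 0.03 and -0.07 in G2C9, none of them called.

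Of the 6 transcription factors in the set, Irf1 was the only one called, and in G2C9 alone. Irf1, an activator that interferon gamma induces quickly, had 43.7, 70.4 and 46.1 CPM in G1C7, 31.7, 35.6 and 39.6 CPM in G2C9 and 65.3, 64.9 and 64.6 CPM in Gcontrol. All G2C9 libraries were below Gcontrol, whereas in G1C7 replicates 1 and 3 were below it and replicate 2 above it. The log2 fold change was -0.28 ± 0.18 in G1C7 (edgeR adjusted p = 0.313) and -0.86 ± 0.18 in G2C9 (adjusted p = 0.0142). The G2C9 call ended without any 1 Gcontrol library or without G2C9 replicate 1 or 2 (adjusted p of 0.0526 to 0.0569), and without G1C7 replicate 2 Irf1 passed in G1C7 too (adjusted p = 0.00556). Of the exon bases of Irf1, 20.0% also lie in the gene Gm17334, and the counts ignore strand.

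The interferon-specific complex is built of Stat2 and Irf9, and its main inducible successor is Irf7, which amplifies type I interferon. Stat2, whose promoter letters are shown above, had 13.2, 29.4 and 12.4 CPM in G1C7, 11.2, 13.3 and 27.7 CPM in G2C9 and 14.3, 13.0 and 12.3 CPM in Gcontrol. The libraries that stood apart lay above every Gcontrol library, and the other 4 were near it. Its log2 fold change of 0.48 in G1C7 and 0.40 in G2C9 did not pass, and with both libraries left out it was -0.04 and -0.11. Irf9 ranged from 8.18 to 12.9 CPM over the derivatives and from 11.0 to 13.9 CPM in Gcontrol, without a call. Irf7 had 0.243, 1.78 and 0.292 CPM in G1C7, 0.238, 0.245 and 2.19 CPM in G2C9 and 2.92, 2.59 and 2.72 CPM in Gcontrol. All 6 derivative libraries were below Gcontrol, yet the spread within each derivative was wide and the changes of -1.82 ± 0.98 in G1C7 (edgeR adjusted p = 0.242) and -1.62 ± 0.97 in G2C9 (adjusted p = 0.328) did not pass. With both libraries that stood apart left out, Irf7 fell by 3.34 in G1C7 and by 3.49 in G2C9 on the log2 scale. Irf8 and Batf2, factors of myeloid cells, had at most 16 and 3 reads in any library.

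Among the 6 genes of RNA sensing, Ddx58 and Trim25 fell in both derivatives. Ddx58 encodes RIG-I, the cytoplasmic sensor of uncapped RNA ends, and had 27.1, 34.7 and 24.1 CPM in G1C7, 31.0, 31.0 and 35.0 CPM in G2C9 and 67.5, 66.4 and 68.1 CPM in Gcontrol. The groups were far apart, and the libraries that stood apart were the highest of their derivatives by a small margin. The log2 fold change was -1.23 ± 0.13 in G1C7 (edgeR adjusted p = 8.05e-04) and -1.06 ± 0.13 in G2C9 (adjusted p = 0.00168). Both calls held without each of the 9 libraries in turn. Trim25, a ubiquitin ligase that acts with RIG-I, had 47.7, 40.1 and 43.3 CPM in G1C7, 47.1, 48.5 and 45.2 CPM in G2C9 and 64.1, 64.4 and 69.3 CPM in Gcontrol. All 6 derivative libraries were below Gcontrol. The log2 fold change was -0.59 ± 0.09 in G1C7 at an edgeR adjusted p of 0.00299 and -0.49 ± 0.09 in G2C9 at 0.00820, a call that ended without Gcontrol replicate 3 (0.0508).

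Ifih1, Dhx58 and Zbp1 were below Gcontrol in G1C7 replicates 1 and 3 and G2C9 replicates 1 and 2, and nearer to it or above it in the libraries that stood apart. Ifih1, which encodes the long-RNA sensor MDA5, had 0.299, 1.91 and 0.475 CPM in G1C7, 0.356, 0.531 and 1.84 CPM in G2C9 and 4.33, 2.96 and 3.53 CPM in Gcontrol. Dhx58, which encodes the related helicase LGP2, had 2.00, 3.90 and 1.55 CPM in G1C7, 1.29, 1.16 and 4.39 CPM in G2C9 and 2.94, 2.99 and 2.68 CPM in Gcontrol. Zbp1, a sensor of Z-form nucleic acid, had 0.187, 0.801 and 0.11 CPM in G1C7, 0.238, 0.0408 and 1.25 CPM in G2C9 and 1.74, 1.98 and 1.61 CPM in Gcontrol. Ifih1 and Zbp1 were below Gcontrol in 6 of 6 libraries, while Dhx58 was below it in 4 and above it in G1C7 replicate 2 and G2C9 replicate 3. None passed with all libraries (edgeR adjusted p of 0.111 and 0.132 for Ifih1, 0.825 and 0.751 for Dhx58 and 0.159 and 0.281 for Zbp1, in G1C7 and G2C9). Ifih1 and Zbp1 passed in G1C7 without G1C7 replicate 2 (0.0105 and 0.0390) and in G2C9 without G2C9 replicate 3 (0.0412 and 0.0421), and Ifih1 also passed in G2C9 without G1C7 replicate 2 (0.0272). Eif2ak2, which encodes the kinase PKR that halts translation on sensing double-stranded RNA, had 56.1, 58.1 and 56.5 CPM in G1C7, 45.2, 47.4 and 47.0 CPM in G2C9 and 52.9, 49.3 and 52.7 CPM in Gcontrol. It was the gene of the set that lay above Gcontrol in all G1C7 libraries and below it in all G2C9 libraries, with no call in either (0.14 and -0.15).

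None of the 3 genes of the ISG15 system was called with all 9 libraries. Isg15, a ubiquitin-like protein attached to other proteins in the interferon response, had 0.486, 3.42 and 0.511 CPM in G1C7, 0.753, 0.408 and 6.13 CPM in G2C9 and 6.36, 6.17 and 6.21 CPM in Gcontrol. Replicates 1 and 3 of G1C7 and replicates 1 and 2 of G2C9 lay far below Gcontrol, and G2C9 replicate 3 lay just below the lowest Gcontrol library. The change of -2.08 ± 1.05 in G1C7 (edgeR adjusted p = 0.217, and 0.0386 without G1C7 replicate 2) and of -1.36 ± 1.03 in G2C9 (adjusted p = 0.450, and 0.0466 without G2C9 replicate 3) did not pass. Usp18, which removes ISG15 and restrains the type I receptor, had 0.0748, 0.473 and 0.219 CPM in G1C7, 0.178, 0.204 and 1.07 CPM in G2C9 and 1.31, 1.35 and 1.01 CPM in Gcontrol. It was below Gcontrol in 5 of 6 derivative libraries and within the Gcontrol range in G2C9 replicate 3. Usp18 passed in G1C7 when G1C7 replicate 2 or G2C9 replicate 3 was left out (adjusted p of 0.0326 and 0.0230) and in G2C9 without G2C9 replicate 3 (0.0337). Herc6, which attaches ISG15 in mouse, had 7.39, 11.6 and 7.36 CPM in G1C7, 10.3, 9.27 and 11.4 CPM in G2C9 and 7.50, 8.04 and 7.09 CPM in Gcontrol, with the change of 0.45 in G2C9 not passing (adjusted p = 0.178, and 0.0190 without G1C7 replicate 2). Of its 100-base exon windows, 10.3% also occur in an overlapping gene.

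The 4 IFIT genes lie side by side on chromosome 19, and they did not behave alike. Ifit1, whose product binds the ends of foreign RNA, had 0.262, 1.78 and 0.146 CPM in G1C7, 0.634, 0.612 and 8.57 CPM in G2C9 and 10.1, 10.7 and 10.3 CPM in Gcontrol. All derivative libraries were below Gcontrol, and G2C9 replicate 3 was the nearest to it. The log2 fold change of -3.82 ± 1.22 in G1C7 (edgeR adjusted p = 0.0644) passed when G1C7 replicate 2 or G2C9 replicate 3 was left out (0.0174 and 0.0133). That of -1.66 ± 1.10 in G2C9 (adjusted p = 0.379) passed without G2C9 replicate 3 (0.0294). Ifit2, a relative with a similar fold, had 69.1, 46.7 and 68.9 CPM in G1C7, 73.9, 72.0 and 62.5 CPM in G2C9 and 48.1, 45.6 and 44.0 CPM in Gcontrol. It was thus higher in 5 of 6 derivative libraries, and in both derivatives the library that stood apart was the lowest. Ifit2 rose in G2C9 by 0.60 ± 0.15 (adjusted p = 0.0332), a call that ended without any 1 Gcontrol library or without G2C9 replicate 1 or 2 (0.105 to 0.132). In G1C7 it gave 0.42 (adjusted p = 0.0912, and 0.00228 without G1C7 replicate 2). Its promoters hold none of the ISRE-type letters in the window read here.

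Ifit3 and Ifit3b share sequence, so their counts are uncertain: 31.7% of the 100-base exon windows of Ifit3 and 27.4% of those of Ifit3b occur in the other gene, and such reads were dropped. Ifit3 had 1.20, 1.89 and 1.44 CPM in G1C7, 1.72, 1.63 and 2.44 CPM in G2C9 and 2.72, 2.20 and 2.54 CPM in Gcontrol. Ifit3b had 0, 0.146 and 0.128 CPM in G1C7, 0, 0.0408 and 0.273 CPM in G2C9 and 0.924, 0.517 and 0.670 CPM in Gcontrol. Ifit3b was below Gcontrol in all 6 derivative libraries, and Ifit3 in 5, and neither passed in either derivative (edgeR adjusted p of 0.0889 and 0.406 for Ifit3, and 0.0938 and 0.129 for Ifit3b). In G1C7, Ifit3 passed without G1C7 replicate 2 (0.0279) and Ifit3b without G2C9 replicate 3 (0.0410), and in G2C9 Ifit3b passed without G2C9 replicate 3 (0.0331).

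**Figure D4:**
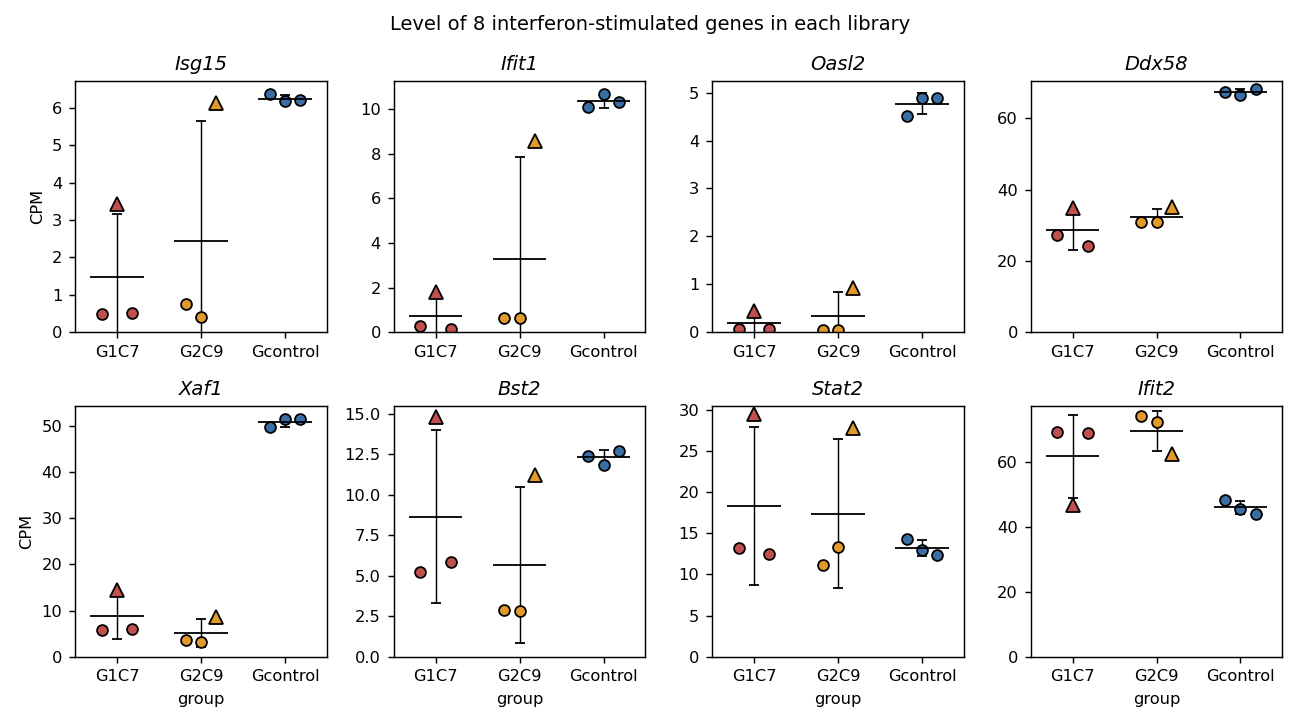
CPM of 8 interferon-stimulated genes in each library by group; triangles are G1C7 replicate 2 and G2C9 replicate 3, circles the other libraries, the line is the mean and the bar the SD (n = 3), cut at 0. Ddx58 and Xaf1 separate the derivatives from Gcontrol in all libraries, Isg15 and Ifit1 are near Gcontrol in the G2C9 triangle, Stat2 is high in both triangles, and Ifit2 is higher in the derivatives.

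The OAS family, whose members make oligoadenylates that activate RNase L or are inactive relatives, was the part of the set with the largest fold changes, from few reads. Its 3 tested genes, Oas3, Oasl1 and Oasl2, entered the test only through their reads in Gcontrol. That way of entering favours large falls, so the rank of the family is not a result on its own. Oasl2 had 0.0748, 0.437 and 0.0731 CPM in G1C7, 0.0396, 0.0408 and 0.918 CPM in G2C9 and 4.51, 4.90 and 4.89 CPM in Gcontrol. All 6 derivative libraries lay far below Gcontrol, those that stood apart included. Oasl2 fell in both, with log2 fold changes of -4.59 ± 1.12 in G1C7 (edgeR adjusted p = 0.0246) and -3.82 ± 1.07 in G2C9 (adjusted p = 0.0477). The G1C7 call ended without any 1 Gcontrol library or without G1C7 replicate 1 or 3 (0.0712 to 0.0745), and the G2C9 call ended without any library except G1C7 replicate 2 or G2C9 replicate 3 (0.0567 to 0.128).

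Oasl1, which in mouse restrains the translation of Irf7, had 0, 4 and 0 reads in G1C7, against 465 reads over the 3 Gcontrol libraries. The ratio of normalised reads (Gcontrol over G1C7) was 115 (95% counting interval 31.5 to 957, in read pairs). Such intervals cover counting error only, and the floors below cover that of the derivative alone. In CPM, Oasl1 had 0.158, 0.0816 and 1.31 in G2C9 and 2.62, 2.85 and 2.98 in Gcontrol. Oasl1 fell in G1C7 (edgeR adjusted p = 0.00901, held without each library in turn), and in G2C9 the change of -2.44 ± 0.92 did not pass (adjusted p = 0.125, and 0.00695 without G2C9 replicate 3). Oas3 had 0, 2 and 0 reads in G1C7, 0, 0 and 2 in G2C9 and 20, 12 and 12 in Gcontrol, and fell in both (adjusted p = 0.0224 and 0.0292). The ratio of Gcontrol over G1C7 was 21.8 (3.52 to 898) and that of Gcontrol over G2C9 was 20.1 (3.25 to 830). The calls of Oas3 ended without any 1 Gcontrol library, and without replicates 1 or 3 of G1C7 (0.0684 to 0.0971) or replicates 1 or 2 of G2C9 (0.0875 to 0.122). Oas1a had 0 reads in both derivatives and 21 over Gcontrol. Against a floor of 3 read pairs (6 reads) over a group, it was 3.46-fold lower in G1C7 and 3.20-fold lower in G2C9. Oas2 had 0 reads in both derivatives and 0, 8 and 4 in the Gcontrol libraries, so its groups overlapped. Against the same floor its folds were 1.98 and 1.83 in G1C7 and G2C9, too few reads to give a difference. These folds take the Gcontrol count as exact, so they are not lower limits. Neither Oas1a nor Oas2 was tested. Of the exon windows of Oas1a, 40.9% also occur in Oas1g.

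The Mx GTPases, which trap the nucleocapsids of viruses, were read only a few times. Mx1 had 0, 5 and 0 reads in G1C7, 0, 4 and 15 in G2C9 and 20, 10 and 15 in Gcontrol. Mx2 had 0, 17 and 2 reads in G1C7, 2, 6 and 20 in G2C9 and 42, 33 and 31 in Gcontrol. Mx2 was below Gcontrol in all 6 derivative libraries, and neither gene passed with all libraries (edgeR adjusted p of 0.137 and 0.563 for Mx1, and 0.145 and 0.292 for Mx2). Both passed in G1C7 without G1C7 replicate 2 (0.0468 and 0.0131).

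The membrane effectors were not called with all libraries, and both were high in the libraries that stood apart. Bst2, which encodes tetherin and holds budding viruses at the cell surface, had 5.26, 14.8 and 5.86 CPM in G1C7, 2.89, 2.82 and 11.2 CPM in G2C9 and 12.4, 11.8 and 12.7 CPM in Gcontrol. G1C7 replicate 2 was above every Gcontrol library, and the other 5 were below. With both libraries left out, Bst2 fell by 1.14 ± 0.10 in G1C7 and by 2.11 ± 0.11 in G2C9 (edgeR adjusted p = 1.90e-08 and 3.20e-11), while with all libraries the changes were -0.51 and -1.13 (adjusted p = 0.595 and 0.256), and without G2C9 replicate 3 alone it passed in G2C9 (0.0211). Ifitm3 had 182, 292 and 195 CPM in G1C7, 192, 201 and 312 CPM in G2C9 and 232, 237 and 221 CPM in Gcontrol. Its change was -0.05 in G1C7 and 0.03 in G2C9, and with both libraries left out it was -0.29 and -0.23, so the small change in G2C9 turned its sign.

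Among the 8 other effectors, Xaf1 and Parp14 fell in both derivatives, Samd9l in G1C7 and Ifi35 in G2C9. Xaf1, which encodes a pro-apoptotic partner of XIAP, had 5.84, 14.4 and 5.99 CPM in G1C7, 3.64, 3.14 and 8.59 CPM in G2C9 and 49.7, 51.4 and 51.5 CPM in Gcontrol. This was among the clearest separations of the set, with no derivative library near Gcontrol. The fall was 2.54 ± 0.46 in G1C7 and 3.31 ± 0.48 in G2C9 on the log2 scale (edgeR adjusted p = 0.00701 and 0.00311), and both calls held without each of the 9 libraries in turn. Parp14, an ADP-ribosyltransferase, had 1.31, 4.28 and 1.37 CPM in G1C7, 1.64, 1.10 and 2.97 CPM in G2C9 and 8.0, 8.55 and 8.70 CPM in Gcontrol. It lay below Gcontrol in all 6 derivative libraries and fell by 1.86 ± 0.51 in G1C7 (adjusted p = 0.0381) and by 2.14 ± 0.52 in G2C9 (adjusted p = 0.0273). The G1C7 call ended without any 1 Gcontrol library, G1C7 replicate 1 or 3, or G2C9 replicate 1 (0.0577 to 0.106), and the G2C9 call without any 1 Gcontrol library or G2C9 replicate 1 or 2 (0.0799 to 0.0993).

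Samd9l, an antiviral inhibitor of translation, had 4.68, 5.10 and 4.35 CPM in G1C7, 5.94, 5.22 and 11.1 CPM in G2C9 and 8.72, 10.1 and 8.15 CPM in Gcontrol. G1C7 lay below Gcontrol throughout and fell by 0.93 ± 0.27 (edgeR adjusted p = 0.0479), whereas in G2C9 replicate 3 was the highest of all libraries and the change of -0.27 did not pass (adjusted p = 0.574, and 0.0303 without that replicate). The G1C7 call ended without any 1 Gcontrol library, G1C7 replicate 1 or 3, or G2C9 replicate 1 (0.0585 to 0.154). Ifi35, a partner of Nmi, had 9.05, 13.1 and 9.28 CPM in G1C7, 6.71, 7.96 and 8.87 CPM in G2C9 and 14.3, 14.9 and 14.4 CPM in Gcontrol. All 6 derivative libraries were lower. Ifi35 fell by 0.89 ± 0.17 in G2C9 (adjusted p = 0.0113, held without each library in turn), and the -0.47 in G1C7 did not pass (adjusted p = 0.0935, and 0.00727 without G1C7 replicate 2). Of its exon bases, 16.8% lie in the gene Gm11626.

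Ifi27, Rtp4, Ifi47 and Ifi44 were low in 4 derivative libraries and higher in those that stood apart. Ifi27, a mitochondrial and nuclear envelope protein, had 14.3, 31.2 and 14.5 CPM in G1C7, 12.8, 13.0 and 31.0 CPM in G2C9 and 23.5, 25.9 and 24.5 CPM in Gcontrol. Rtp4, a receptor-transporting protein, had 1.53, 4.46 and 1.52 CPM in G1C7, 1.80, 1.00 and 4.76 CPM in G2C9 and 3.33, 4.25 and 3.42 CPM in Gcontrol. Ifi47, an immunity-related GTPase, had 6.36, 15.4 and 5.79 CPM in G1C7, 3.72, 3.63 and 9.22 CPM in G2C9 and 11.8, 12.0 and 9.28 CPM in Gcontrol. For Ifi27 and Rtp4 both libraries that stood apart were above all Gcontrol libraries, and for Ifi47 G1C7 replicate 2 was. Ifi44 had 0, 10 and 0 reads in G1C7, 0, 2 and 24 in G2C9 and 38, 32 and 36 in Gcontrol, below Gcontrol in 6 of 6 libraries. None of the 4 passed with all 9 libraries; Ifi44 passed in G1C7 without G1C7 replicate 2 (edgeR adjusted p = 0.0344) and Ifi47 in G2C9 without G2C9 replicate 3 (0.0471).

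Between the derivatives, none of the 33 genes was called by edgeR, where 3.36% of all tested genes were. At an unadjusted p under 0.05 there were 5, with no share of all tested genes computed. DESeq2 called 3, 1 of them lower and 2 higher in G1C7, where it called 8.09% of all tested genes. The median log2 fold change of G1C7 against G2C9 over the 33 genes was -0.10, but it was -0.50 without G1C7 replicate 2 and 0.62 without G2C9 replicate 3. Eif2ak2 gave 0.29 ± 0.07 (edgeR adjusted p = 0.0730), the lowest adjusted p of the set in this comparison, and passed without G1C7 replicate 2 (0.0446). With both libraries that stood apart left out, 10 of 32 genes differed (4 lower and 6 higher in G1C7), where 27.3% of all tested genes did. The higher ones in that fit were Bst2 (0.96), Xaf1 (0.80), Ifi47 (0.72), Irf1 (0.42), Ifi35 (0.32) and Eif2ak2 (0.28), and the lower ones Oasl1, Ifit1 (-1.60), Herc6 (-0.41) and Ddx58 (-0.27). For Oasl1 the ratio of G2C9 over G1C7 in all libraries was 21.4 (95% counting interval 5.61 to 185).

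Interferon-stimulated genes outside the set, from a list written by hand, were more often lower than higher. Of 36 tested interferon-stimulated genes outside the set, 10 fell and 2 rose in G1C7 and 12 fell and 1 rose in G2C9, with medians of -0.58 and -0.59. Of all tested genes, 8.73% were lower and 8.77% higher in G1C7, and 7.22% lower and 6.25% higher in G2C9. With both libraries that stood apart left out, 22 fell and 3 rose in G1C7 and 23 fell and 1 rose in G2C9. In that fit 27.9% of all tested genes were lower in G1C7 and 27.6% in G2C9. Rsad2, which encodes the antiviral enzyme viperin, had 2 reads in G1C7 and 0 in G2C9 against 232 in Gcontrol, and Cmpk2, a nucleotide kinase, had 2 in G1C7 and 2 in G2C9 against 164 in Gcontrol. The genes beside them on chromosome 12 were as low: Rnf144a had 2 reads in G1C7 and 0 in G2C9 against 278 in Gcontrol, and Sox11 had 0 in both derivatives against 521 in Gcontrol. The part of that interval in the loss of Rsad2 and Cmpk2 reads was not tested. Rsad2 and Cmpk2 are among the genes counted as falling in each derivative, and they entered the test only through their reads in Gcontrol. The list was not counted without genes of this kind. Ifi30, a lysosomal thiol reductase, had 15.1, 18.0 and 16.9 CPM in G1C7, 9.51, 9.16 and 11.3 CPM in G2C9 and 29.0, 30.2 and 28.4 CPM in Gcontrol, and fell in both (edgeR adjusted p = 0.00236 and 1.85e-04). Pml, which scaffolds nuclear bodies, rose in both, at 103 ± 10.1 CPM in G1C7, 97.9 ± 10.0 CPM in G2C9 and 64.0 ± 2.82 CPM in Gcontrol (SD, n = 3 each; edgeR adjusted p = 0.00335 and 0.00682). The chemokine gene Cxcl10 had 5.97, 28.9 and 6.21 CPM in G1C7, 8.89, 9.55 and 54.8 CPM in G2C9 and 51.0, 51.0 and 49.5 CPM in Gcontrol. Cxcl10 was far below Gcontrol in G1C7 replicates 1 and 3 and G2C9 replicates 1 and 2. It was less far below in G1C7 replicate 2 and above every Gcontrol library in G2C9 replicate 3. Cxcl10 did not pass (edgeR adjusted p = 0.158 in G1C7 and 0.459 in G2C9), but passed in G1C7 without G1C7 replicate 2 (0.0233).

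Of 11 tested genes of nucleic acid sensing outside the set, 2 fell in G1C7 (Tlr7 and Myd88), and in G2C9 Myd88 fell and Tbk1 rose. With both libraries that stood apart left out, 5 fell and 2 rose in each. Of all tested genes, 17.5% were called in G1C7 and 13.5% in G2C9 with all libraries. With both libraries left out these shares were 54.3% and 53.0%. Myd88, the adaptor of most Toll-like receptors, had 19.0, 18.1 and 20.0 CPM in G1C7, 20.1, 20.9 and 22.1 CPM in G2C9 and 27.2, 26.2 and 26.3 CPM in Gcontrol. It was lower in all 6 derivative libraries, by -0.48 ± 0.09 in G1C7 (edgeR adjusted p = 0.00645) and -0.34 ± 0.09 in G2C9 (adjusted p = 0.0330, ended without any library except G1C7 replicate 2 or G2C9 replicate 3, at 0.0513 to 0.145). Tlr7, a receptor for single-stranded RNA, gave -2.77 ± 0.59 in G1C7 (adjusted p = 0.0142, and 0.0541 without Gcontrol replicate 1), and Tbk1, the kinase of Irf3, gave 0.39 ± 0.11 in G2C9 (adjusted p = 0.0454, ended without any library except G1C7 replicate 2, at 0.0551 to 0.186). Of 11 tested inhibitors and nucleases, 2 fell and 1 rose in G1C7, and 1 fell and 1 rose in G2C9. With both libraries left out 3 fell and 5 rose in G1C7 and 5 fell and 5 rose in G2C9. The same shares of all tested genes stand beside these counts. Rnaseh2a, the catalytic subunit of RNase H2, fell in both (-0.42 and -0.72, adjusted p = 0.0293 and 0.00363), and Rnaseh2c, another subunit, rose in both (0.57 and 0.35, adjusted p = 0.00189 and 0.0187). Adar, which edits double-stranded RNA, fell in G1C7 (-0.64, adjusted p = 0.00505) and gave -0.24 in G2C9 (adjusted p = 0.187, and 0.0305 without G1C7 replicate 2). The call of Rnaseh2a in G1C7 ended without any 1 Gcontrol library or G1C7 replicate 1 or 3 (0.0826 to 0.0965), and that of Rnaseh2c in G2C9 without any 1 Gcontrol library or G2C9 replicate 1 or 2 (0.0562 to 0.0902).

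Set beside the promoter letters, the 16 genes with all 6 derivative libraries below Gcontrol included 13 with a promoter, of which 6 held the ISRE-type letters and 1 the GAS letters. Of the other 13 genes with a promoter, 6 held the ISRE-type letters and 7 the GAS letters. These 13 include Oas1a, which holds both kinds of letters. Oas1a was not tested, so it is not in the 16, but it had 0 reads in both derivatives and was below Gcontrol throughout. Ifit1, Ifit3b, Isg15 and Oas3 were in the 16, and Stat2, Ifit3 and Bst2 were not, so the letters printed above occur in genes of both kinds.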

How the data were processed

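The authors deposited counts of reads per gene for each of the 9 libraries, made with featureCounts 1.6.0 on GENCODE vM25 (GRCm38), per the file headers; FastQC 0.11.8, STAR 2.6.1c, edgeR and limma are named in the submitters' processing notes. The headers of 9 of 9 files hold no option for pairs, strand, multi-mapping reads or reads in several genes, so mates were counted separately (74.1% to 75.6% of counts from 2 to 50 were even), strand was ignored and shared reads were dropped. The library kit was stranded, per the labels. Symbols came from GENCODE vM21, which held 55141 of the 55401 IDs.

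From the counts, CPM were computed with TMM factors (0.978 to 1.03). Genes kept by filterByExpr (15659) entered one edgeR 4.0.16 quasi-likelihood fit of all 9 libraries with robust dispersion (R 4.3.3, 6 residual degrees of freedom, common biological coefficient of variation 0.248). Calls required a p under 0.05 after Benjamini-Hochberg adjustment over all tested genes, and every adjusted p printed is of that kind. Standard errors were obtained by dividing the size of the log2 fold change by the square root of F. Groups at 0 reads were given a floor of 6 reads. Values without a library come from the same fit repeated without it. DESeq2 1.42.0, limma-voom 3.58.1, RLE factors, other filters, counts in read pairs, separate fits and a replicate block were alternatives, and the procedure was tested on simulated counts. The named genes are the 36 members, Havcr2, the genes with reads in the lists of ligands, receptors and signalling, and up to 2 highest and 2 lowest called genes of each other list; Cxcl10 and the neighbours of Rsad2 were chosen after their values were seen. One of the named genes is not reported here. The members, lists and the 2 libraries given apart were chosen with earlier results of these data known. Mitochondrial genes held 1.39% to 1.94% of reads. Among other markers, T and NK cell genes summed to at most 0.122 CPM, endothelial genes to 1.02 to 4.75 CPM, neuronal genes to 25.2 to 46.2 CPM and glial precursor genes to 2818 to 3391 CPM per library.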

Additional observations from a re-analysis of the deposited data

Results flagged for a closer look

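The difference from Gcontrol was not the same in the 2 derivatives for Nmi and Ifi30, by a test of G1C7 against G2C9 itself, and Eif2ak2 lay on opposite sides of Gcontrol without passing it. Nmi, a partner of Ifi35, stood 0.76 higher in G1C7 on the log2 scale (edgeR adjusted p = 0.0161), with 7.02, 6.57 and 6.39 CPM in G1C7, 3.80, 3.86 and 4.12 CPM in G2C9 and 6.93, 7.17 and 7.04 CPM in Gcontrol. That call ended without any library except G1C7 replicate 2 or G2C9 replicate 3 (adjusted p of 0.0509 to 0.0855). Ifi30 stood 0.74 higher in G1C7 (adjusted p = 0.0122, ended without G2C9 replicate 1 or 2 at 0.0576 and 0.0670), and both derivatives were below Gcontrol. Eif2ak2 stood 0.29 higher in G1C7, did not pass the test (adjusted p = 0.0730), and drew attention because its 3 G1C7 libraries lay above Gcontrol and its 3 G2C9 libraries below it.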

How the results depend on the processing

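The number of genes called depended on the libraries that stood apart. With both left out, the calls were 8581 of all genes and 30 of the set in G1C7, 8383 and 31 in G2C9, and 4320 and 10 between the derivatives, against 2740 and 8, 2109 and 9, and 526 and 0 with all libraries; the medians of the set were -1.33 and -1.84 in G1C7 and G2C9. In that fit values turned sign for Ifnar2 (-0.37), Il10rb (-0.28) and Ly6e (-0.42) in G1C7, and for Ifitm3 (-0.23), Trim30a (-1.79) and Isg20 (-0.22) in G2C9. Leaving out 1 library at a time, all genes called ranged from 1181 to 4133 in G1C7, 878 to 4113 in G2C9 and 186 to 1286 between the derivatives, genes of the set from 4 to 21, 3 to 20 and 0 to 1, and the median of the set lay between -1.26 and -0.85 in G1C7 and between -0.50 and 0.62 between the derivatives. limma-voom called 13 of the set and 18.7% of all tested genes in G1C7. DESeq2 called 3190 of all genes in G2C9 and 1267 of all genes and 3 of the set between the derivatives. Fitting only the groups compared called 3212 in G2C9 and 80 between the derivatives. The causes of these shifts were not tested. With the replicate number as a block, 1532 of all genes and 4 of the set were called in G1C7, 1114 and 5 in G2C9 and 164 of all genes between the derivatives. Same-numbered libraries of G1C7 and G2C9 had correlations of 0.409, -0.511 and -0.557 of their deviations from the group means. Those with Gcontrol lay between -0.02 and 0.05, and G1C7 replicate 2 was most like G2C9 replicate 3 (0.677). The 2 libraries that stood apart carry different numbers and shift the means of their groups. These correlations therefore cannot decide whether the numbers pair the libraries. Of 1761 values of the set under an alternative, 1598 kept their side of the threshold (62 of them uncalled and of other sign), 101 passed it newly, 61 no longer passed it and 1 reversed. Genes with few reads, such as the OAS and Mx genes, have fold changes that the depth leaves uncertain.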
